A study of Rattus norvegicus with 18 samples.

Results

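The genes of the rat major histocompatibility complex, named RT1, and 10 genes that serve antigen presentation were followed in the left ventricles of 3 groups of male rats. Members were the rows of the authors' 3 tables of changed genes whose symbol begins with RT1- or is Cd74, Ciita, B2m, Tap1, Tap2, Tapbp, Tapbpl, Erap1, Nlrc5 or Cd1d1. The rule found 20 gene identifiers with 19 symbols, among 6588 identifiers in the 3 tables together. By their descriptions, 2 are class Ia genes, 6 class Ib and other class I genes and 7 class II genes. The other 5 are genes of the presentation machinery and its regulators. The 2 class Ia genes carry the symbols RT1-CE1 and RT1-CE11, which name other loci than their descriptions.

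The groups were 6 ZSF1 obese rats, which combine hypertension and metabolic syndrome and model heart failure with preserved ejection fraction, 6 ZSF1 lean rats, which are hypertensive, and 6 Wistar Kyoto (WKY) rats, the control strain. The labels give neither ages nor alleles of the leptin receptor gene for these animals, and no treatment. As background, ZSF1 rats come from a cross of different strains, and obesity in them goes with inherited defects of the leptin receptor, so the WKY comparisons set strain and disease side by side while the comparison of obese with lean rats stays within ZSF1. Polyadenylated RNA was sequenced. The tables give a linear fold change and an adjusted p-value per gene for 6 rats against 6, and no level per rat, so the spread between rats enters only through the adjusted p, and sequencing depth is unknown. A gene outside a table may have missed the authors' thresholds or not have been measured, which cannot be told apart.

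Class I molecules sit on nearly all nucleated cells and show peptides from inside the cell to CD8 T cells. Class II molecules are made chiefly by dendritic cells, macrophages and B cells and show peptides from engulfed material to CD4 T cells, and Ciita is the transactivator that switches their genes on. RT1 genes have near-identical copies and differ between strains in sequence and even in number. Reads of one copy can therefore be counted on another, or lost, when the animals' haplotype is not that of the reference genome, and every RT1 value below carries that uncertainty.

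Class II promoters are known for an X box and a Y box at a fixed distance, the site on which the complex that recruits Ciita assembles. RefSeq promoters of build GRCr8, which is the genome of the Brown Norway strain and of none of these rats, were found for 18 of the 19 symbols. Windows around these boxes are shown for the class II genes because the 7 listed ones moved in the same direction. All are from chromosome 20, and capitals mark the X box, searched as its core ACNGATG, and the Y box, searched as TGATTGG.
RT1-Da (chr20:4515319-4515375, plus strand): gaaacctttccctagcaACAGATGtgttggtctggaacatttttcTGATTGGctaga
RT1-Db1 (chr20:4560233-4560289, minus strand): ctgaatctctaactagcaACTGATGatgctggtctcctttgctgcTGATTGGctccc
RT1-Db2 (chr20:4541703-4541759, minus strand): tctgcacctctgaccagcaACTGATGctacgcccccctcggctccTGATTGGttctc
RT1-Bb (chr20:4604170-4604226, minus strand): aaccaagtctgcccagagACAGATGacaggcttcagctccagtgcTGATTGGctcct
RT1-DOb (chr20:4627597-4627653, minus strand): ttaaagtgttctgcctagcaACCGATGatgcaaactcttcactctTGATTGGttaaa
RT1-Ba (chr20:4576967-4577023, plus strand): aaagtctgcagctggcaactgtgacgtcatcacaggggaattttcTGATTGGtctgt
RT1-DOa (chr20:4758521-4758577, minus strand): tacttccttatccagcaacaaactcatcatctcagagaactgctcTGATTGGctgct
RT1-DMa (chr20:4712390-4712446, minus strand): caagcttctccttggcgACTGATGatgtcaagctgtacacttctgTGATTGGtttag

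The Y box was present in all 9 class II promoters held by the reference and in 7.06% of all 33469 promoters, on either strand. It was also present in 15 of 33 class I and Ib promoters, so this box alone did not set class II apart. The X box letters were present in 6 of the 9, in 10 of 33 class I and Ib promoters and in 10.2% of all promoters. An X box followed on the gene's strand by a Y box after 10 to 30 bases occurred in 8 promoters of 33469, or 0.0239%, of which 6 were class II genes and the others were Hsd17b7 and Tdo2. In the 6 class II promoters the gap between the boxes was 18 to 21 bases. The letters were set after these promoters had been read, so the shares describe the windows and are no test. RT1-DMa carries both boxes although it was in none of the 3 tables, and RT1-Ba and RT1-DOa hold the Y box without a match to the X box letters.

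Class I promoters are known for an enhancer with a kappa B site and an interferon-stimulated response element (ISRE). The windows are those of RT1-CE11, 2 class Ib genes and 3 machinery genes as examples of listed genes with a match. RT1-M3-1 and RT1-T24-1, also listed, hold the ISRE letters too and are not shown. Capitals mark the kappa B site, searched as GGGATTCCC, in RT1-CE11 and the ISRE, searched as its core TTTCNNTTT, in the others, each on both strands.
RT1-CE11 (chr20:3363333-3363379, minus strand): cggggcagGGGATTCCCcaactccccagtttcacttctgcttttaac
RT1-S2 (chr20:2654889-2654917, plus strand): cctgctgcTTTCTCTTTcatgaagacaca
RT1-N3 (chr20:2666274-2666302, plus strand): tgcttcagTTTCACTTTccagtccctaac
Tap1 (chr20:4668644-4668672, minus strand): gtggctgcTTTCGGTTTcttcttcctcta
Tap2 (chr20:4652316-4652344, minus strand): gcgaagtgAAAGCGAAAgcccgggacccg
B2m (chr3:129549173-129549201, plus strand): agaacatgAAACTGAAAatgggaaagtcc

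The kappa B letters were present in 8 of 33 class I promoters and in 122 of all 33469 promoters, or 0.365%. Of those 8, only RT1-CE11 was listed. RT1-A1, RT1-A2, RT1-A3, RT1-CE4, RT1-CE10, RT1-CE13 and RT1-CE16 hold the letters too and were under these symbols in no table. The ISRE letters were present in 6 of 33 class I promoters, in 5 of 7 promoters of the machinery genes and in 11.8% of all promoters. Of the 9 class II promoters, 0 held the kappa B letters and 1, that of RT1-DOa, the ISRE letters. An absent match says only that these letters are not in the 300 bases searched.

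Obese and lean ZSF1 hearts were compared first, which addresses metabolic syndrome on top of hypertension within one strain background. Class II genes rose with folds of 3.07 to 5.46, class I genes rose with folds of 2.17 to 2.97, and the lipid-presenting molecule gene Cd1d1 fell to 0.287 of the lean level, all per the authors' deposited table. Of the 17 listed members, 16 rose and 1 fell. Among all 5700 listed genes 53.4% rose. Of the protein-coding genes in the reference, 12.0% were listed with a rise and 10.7% with a fall, while 17 of the 54 protein-coding members of the reference were listed, or 31.5%. The tissue is whole ventricle, so more cells of a type and more RNA per cell cannot be told apart. The reference stands in here for the number of genes the authors tested, which the sources used here do not give.

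**Figure D1:**
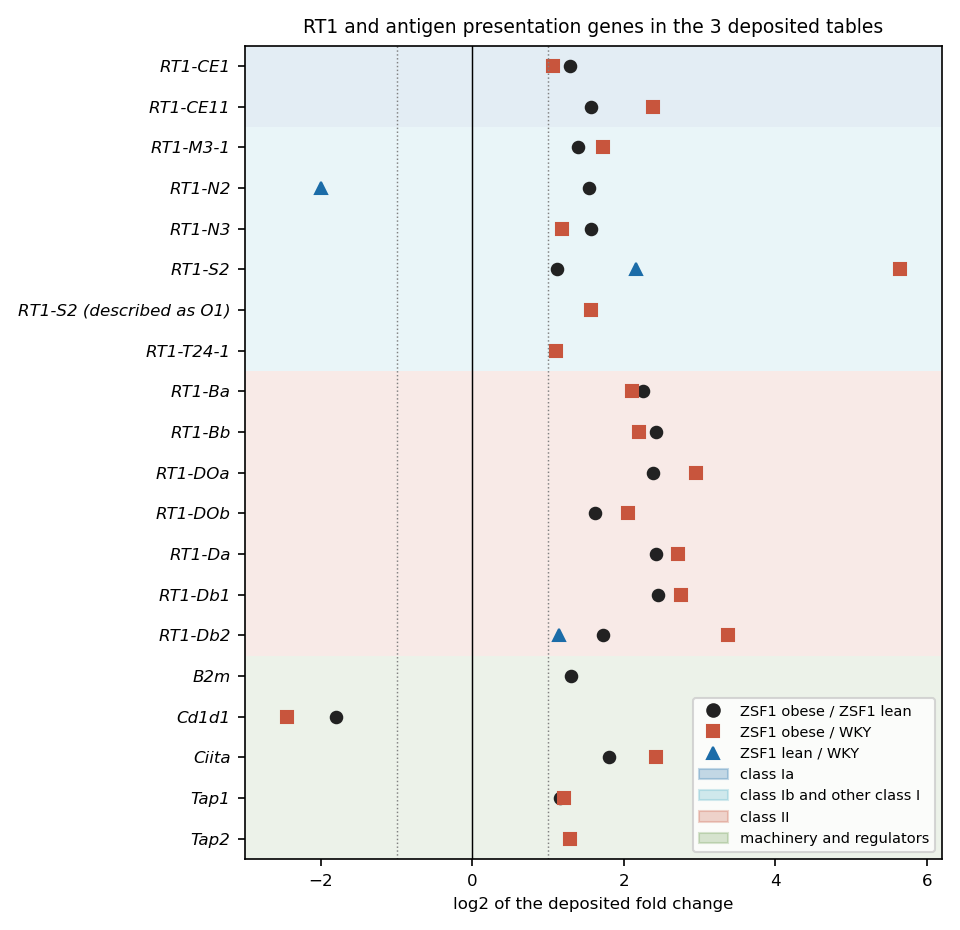
Deposited fold changes of the 20 members on a log2 scale (horizontal axis), 1 row per gene identifier, shaded by class; circles are ZSF1 obese over ZSF1 lean, squares ZSF1 obese over WKY and triangles ZSF1 lean over WKY, and dotted lines mark a fold of 2 and of 0.5. The 7 class II genes lie right of the dotted line in both obese comparisons, Cd1d1 lies left of 0 in both, and RT1-N2 lies left of 0 in lean over WKY and right of it in obese over lean.

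Both chains of the classical class II molecules rose in obese hearts. RT1-Da (ENSRNOG00000032844), the alpha chain related to human DRA, had a fold of 5.39 over lean hearts per the authors' deposited table (adjusted p = 2.2e-08). Its partner RT1-Db1 (ENSRNOG00000033215), a DR beta chain, had a fold of 5.46 (adjusted p = 1.12e-09) per the authors' deposited table. The beta chain RT1-Db2 (ENSRNOG00000030431), the adjacent coding gene in the reference order, had a smaller fold of 3.29 (adjusted p = 1.92e-05) per the authors' deposited table. The pair related to human DQ, RT1-Ba (ENSRNOG00000000451) and RT1-Bb (ENSRNOG00000032708), had folds of 4.76 (adjusted p = 6.75e-07) and 5.39 (adjusted p = 2.15e-09) per the authors' deposited table. The folds of 4 of these 5 chains thus lay between 4.76 and 5.46, and that of RT1-Db2 below them.

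The non-classical chains RT1-DOa and RT1-DOb form a molecule known to restrain the peptide-loading factor DM, mostly in B cells and some dendritic cells. RT1-DOa (ENSRNOG00000026762) had a fold of 5.21 (adjusted p = 4.25e-09) and RT1-DOb (ENSRNOG00000000454) one of 3.07 (adjusted p = 3.28e-06) in obese over lean hearts per the authors' deposited table. The chains of DM itself, RT1-DMa and RT1-DMb, and RT1-Ha were in none of the 3 tables. Thus 7 of the 10 protein-coding class II genes of the reference were listed, beside 12.0% of all protein-coding genes listed with a rise over lean hearts. Cd74, the invariant chain that escorts class II molecules to the endosome, was not in the tables either. Ciita (ENSRNOG00000002659) rose with a fold of 3.48 (adjusted p = 2.61e-05) per the authors' deposited table.

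Class I genes rose with smaller folds. RT1-CE11 (ENSRNOG00000038999) had a fold of 2.97 (adjusted p = 6.6e-41) in obese over lean hearts per the authors' deposited table, and RT1-CE1 (ENSRNOG00000030712) one of 2.44 (adjusted p = 4.37e-15). The descriptions beside these symbols name the class Ia loci A1 and A2, so which locus was counted is unsettled, and RT1-A1, RT1-A2 and RT1-A3 were listed under those symbols in no table. Among class Ib genes RT1-N3 (ENSRNOG00000000795) had a fold of 2.95 (adjusted p = 3.52e-23), RT1-N2 of 2.91 (adjusted p = 6.35e-20) and RT1-M3-1 (ENSRNOG00000000763), whose mouse relative presents formylated bacterial peptides, of 2.62 (adjusted p = 5.48e-32) per the authors' deposited table. RT1-S2 (ENSRNOG00000029001) had the smallest fold, 2.17 (adjusted p = 0.000109), per the authors' deposited table. Of 34 protein-coding class I and Ib symbols in the reference, 6 were listed in this comparison, or 17.6%, against 7 of 10 for class II. All 6 rose, while 12.0% of all protein-coding genes were listed with a rise and 10.7% with a fall. The class I share thus lay near that of genes in general. The class I and Ib symbols found in no table were RT1-A1, RT1-A2, RT1-A3, RT1-CE2, RT1-CE3, RT1-CE4, RT1-CE5, RT1-CE7, RT1-CE10, RT1-CE12, RT1-CE13, RT1-CE15, RT1-CE16, RT1-M1-2, RT1-M1-4, RT1-M1-5, RT1-M2, RT1-M4, RT1-M5, RT1-M6-1, RT1-M6-2, RT1-O1, RT1-S3, RT1-T18, RT1-T24-3, RT1-T24-4 and RT1-O1l1.

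Genes that supply the class I molecule rose by a similar amount. B2m (ENSRNOG00000017123), the light chain shared by all class I molecules, had a fold of 2.46 (adjusted p = 1.33e-19) per the authors' deposited table. Tap1 (ENSRNOG00000000457), a subunit of the pump that moves peptides into the endoplasmic reticulum, had a fold of 2.22 (adjusted p = 1.29e-12) per the authors' deposited table. Tap2, its partner subunit, the peptide editors Tapbp and Tapbpl, the peptide-trimming enzyme gene Erap1 and Nlrc5, a transactivator of class I genes, were not in this table. Cd1d1 (ENSRNOG00000016451), which presents lipids to natural killer T cells, was the 1 member that fell (fold 0.287, adjusted p = 4.74e-50 per the authors' deposited table).

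Size and certainty did not go together across the classes. The 7 class II genes had a median fold of 5.21 with adjusted p-values of 1.12e-09 to 1.92e-05 per the authors' deposited table, while the 4 class Ib and other class I genes had a median fold of 2.76 with adjusted p-values of 5.48e-32 to 0.000109. The median fold of all genes that rose was 3.01 per the authors' deposited table, with a median adjusted p of 2.95e-12, so each listed class II gene had a larger fold and a larger adjusted p than these medians. By fold, RT1-Db1 ranked 333 among the 3045 genes that rose, and Cd1d1 ranked 1141 among the 2655 that fell.

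**Figure D2:**
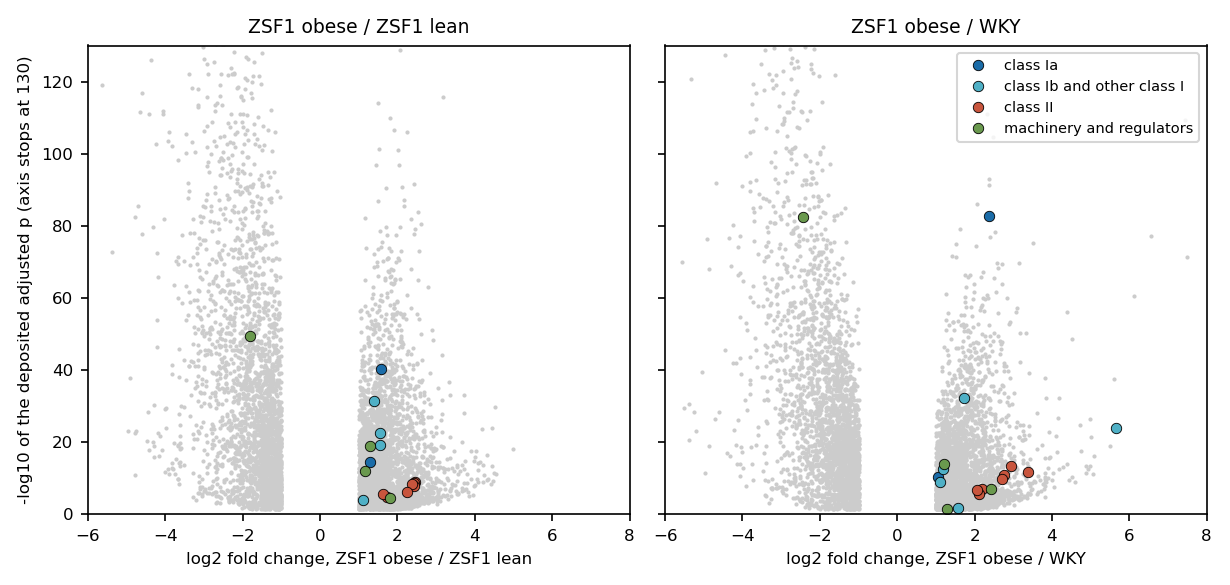
Deposited log2 fold (horizontal axis) against -log10 of the deposited adjusted p (vertical axis) for ZSF1 obese over ZSF1 lean (left) and ZSF1 obese over WKY (right); grey points are all listed genes, coloured points the members by class, and genes with an adjusted p given as 0 or beyond the axis are not drawn. In the left panel class II genes lie to the right of all class I genes and lower than most of them. RT1-CE11 and Cd1d1 lie high in the right panel, and RT1-S2 stands far to the right there.

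Obese ZSF1 hearts were next compared with those of WKY, the control strain. This comparison uses the same obese rats, so its values are not independent of those above. Of its 18 listed members, 17 rose and 1 fell, beside 54.0% of all 5709 listed genes that rose. Of the protein-coding genes in the reference, 12.3% were listed with a rise and 10.6% with a fall. Among rises alone, the median fold over WKY was 4.32 for the members and 3.05 for all listed genes per the authors' deposited table. Over lean hearts the medians of the rises were 3.02 for the members and 3.01 for all listed genes per the authors' deposited table, so the members as a whole stood no higher than other listed rises there.

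RT1-S2 stood apart from every other member. Its fold was 50.2 in obese over WKY hearts per the authors' deposited table (adjusted p = 1.47e-24), the fifth largest of 3084 rises, beside 2.17 over lean hearts. Another identifier with the same symbol (ENSRNOG00000032664), described as locus O1, had a fold of 2.95 over WKY per the authors' deposited table (adjusted p = 0.0188) and was in neither of the other tables. RT1-Db2 was the next largest, with a fold of 10.3 over WKY per the authors' deposited table (adjusted p = 1.81e-12).

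RT1-DOa had a fold of 7.73 (adjusted p = 4.24e-14), RT1-Db1 of 6.77 (adjusted p = 1.46e-11) and RT1-Da of 6.59 (adjusted p = 2.44e-10) per the authors' deposited table. RT1-Bb, RT1-Ba and RT1-DOb lay lower per the authors' deposited table, with folds of 4.59, 4.32 and 4.17 and adjusted p-values of 1.25e-07, 3.05e-06 and 1.86e-07. Ciita had a fold of 5.35 over WKY (adjusted p = 1.22e-07) per the authors' deposited table. RT1-Db2 thus had the highest fold of the 7 class II genes over WKY, and over lean hearts the lowest but for RT1-DOb.

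RT1-CE11 had a fold of 5.21 over WKY per the authors' deposited table (adjusted p = 2.48e-83), the smallest adjusted p of all members. RT1-CE1 had a fold of 2.08 (adjusted p = 5.88e-11) per the authors' deposited table. The remaining class Ib genes had folds of 3.29 for RT1-M3-1 (adjusted p = 7.36e-33) and 2.27 for RT1-N3 (adjusted p = 2.91e-13) per the authors' deposited table. RT1-T24-1 (ENSRNOG00000032596), described only as class I, had a fold of 2.16 (adjusted p = 1.42e-09) per the authors' deposited table. Tap1 had a fold of 2.31 (adjusted p = 1.33e-14) and Tap2 (ENSRNOG00000000455) one of 2.44 (adjusted p = 0.0288) per the authors' deposited table. Cd1d1 fell to 0.184 of the WKY level (adjusted p = 4.23e-83) per the authors' deposited table. RT1-T24-1 and Tap2 were listed against WKY and not against lean hearts, and RT1-N2 and B2m the other way round. Whether any of these effects differs between the comparisons was not tested.

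**Figure D3:**
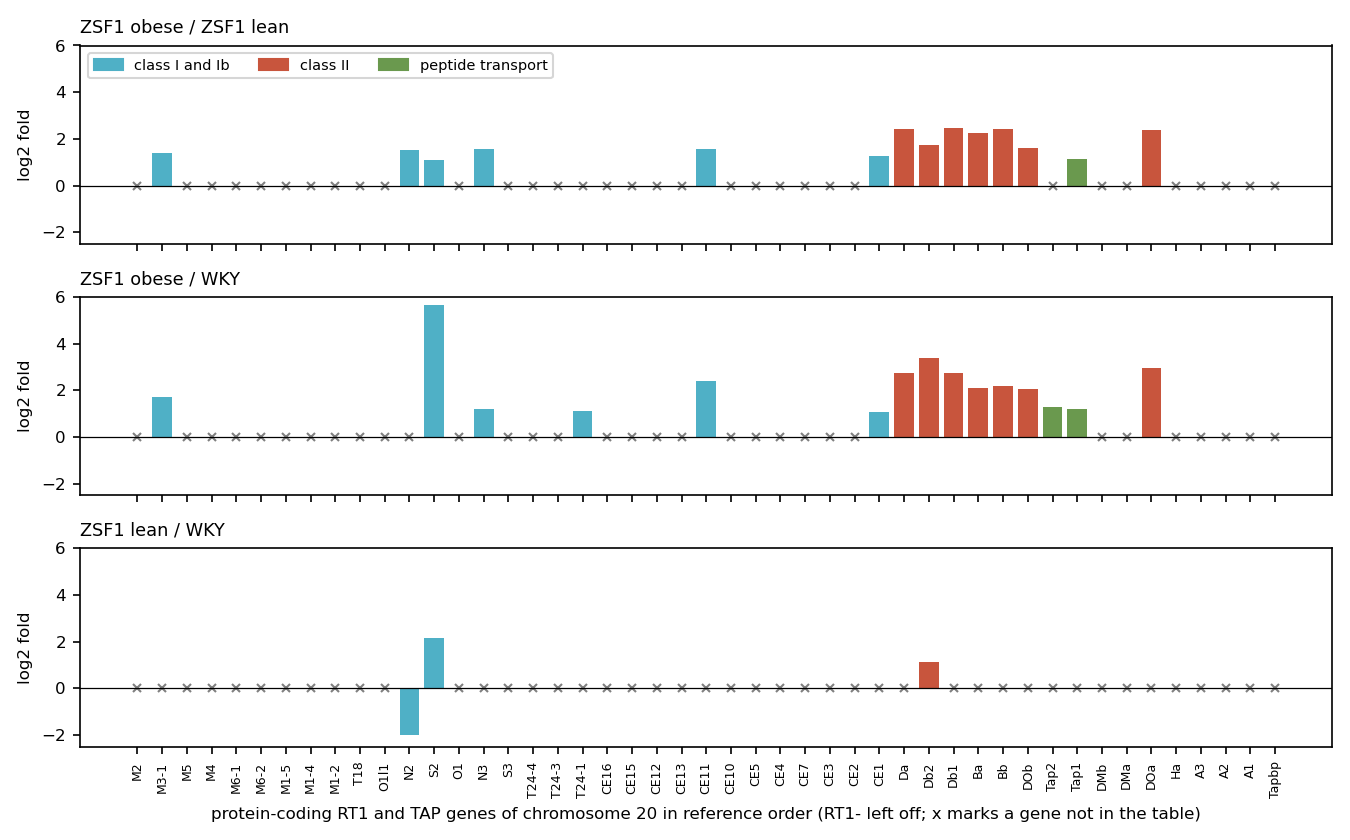
Deposited log2 fold (vertical axis) of the protein-coding RT1, Tap1, Tap2 and Tapbp genes in their order along chromosome 20 of the reference (horizontal axis, not to scale), for ZSF1 obese over ZSF1 lean, ZSF1 obese over WKY and ZSF1 lean over WKY from top to bottom; x marks a gene that is not in the table, and genes are placed by symbol. Class II bars stand next to each other from RT1-Da to RT1-DOb, most class I genes carry an x, and RT1-N2 and RT1-S2 point in opposite directions in the bottom panel.

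Lean ZSF1 and WKY hearts were compared last, which addresses hypertension and strain without obesity. The table held 3 members, of which 2 rose and 1 fell. Of all 233 listed genes, 63.9% rose. Of the protein-coding genes in the reference, 0.592% were listed with a rise and 0.289% with a fall, and 3 of the 54 protein-coding members of the reference were listed, or 5.56%. RT1-S2 rose with a fold of 4.47 (adjusted p = 2.53e-17) and RT1-Db2 with a fold of 2.20 (adjusted p = 1.31e-05) per the authors' deposited table. RT1-N2 (ENSRNOG00000029386) fell to 0.25 of the WKY level (adjusted p = 2.82e-39) per the authors' deposited table, the fourth largest of 84 falls. No class Ia gene and no gene of the machinery was in this table.

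RT1-N2 and RT1-S2 have no other coding gene between them in the reference order and went in opposite directions in lean hearts. RT1-N2, with a fold of 2.91 for obese over lean per the authors' deposited table, was not listed in obese over WKY. The product of its deposited lean over WKY and obese over lean folds is 0.727, which lies between the listing limits of 0.5 and 2. This value depends on the scale of the lean fold, described below, and a stronger lean fall would bring it closer to 0.5 or under it. For RT1-S2 the same product is 9.71, against a deposited obese over WKY fold of 50.2, and for RT1-Db2 it is 7.25, against 10.3.

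The lean table is thus on a narrower scale than the obese tables. In all 79 genes listed in all 3 tables, the deposited lean over WKY fold was nearer to 1 than the quotient of the obese over WKY fold by the obese over lean fold. On the log2 scale the deposited value was 0.794 of the quotient at the median, and 0.407 to 0.993 of it over the 79 genes. The largest adjusted p in the lean table was 0.000347, while 640 genes in obese over lean and 688 in obese over WKY had a larger one. No source used here says whether the lean table was made in another way. Absence from the lean table is therefore a weaker statement than absence from the obese tables.

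**Figure D4:**
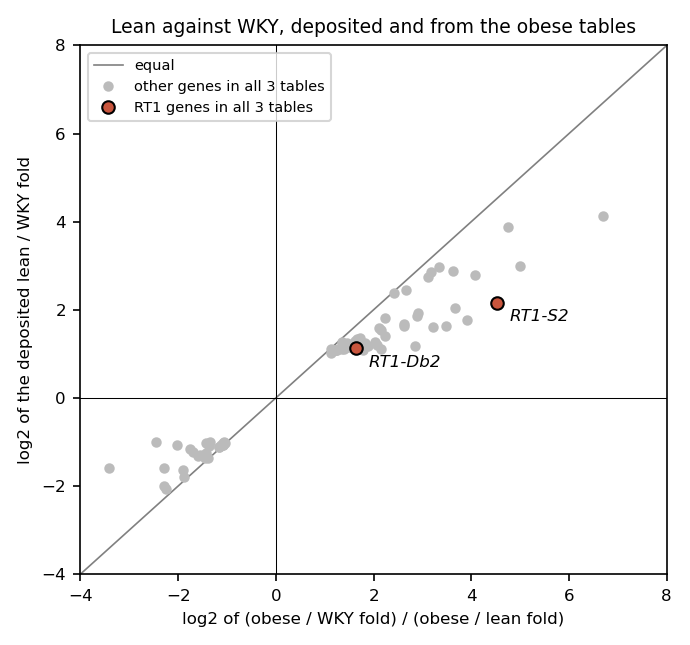
Deposited log2 fold of ZSF1 lean over WKY (vertical axis) against the log2 of the obese over WKY fold divided by the obese over lean fold (horizontal axis) for the 79 genes in all 3 tables; grey points are other genes, red points the RT1 genes, and the line marks equality. All 79 points lie on the side of the line nearer to 0, RT1-S2 far from it and RT1-Db2 closer to it.

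The quotient places members that the lean table does not hold, as arithmetic on the same rats and with no test. For RT1-S2 the quotient was 23.1 and for RT1-Db2 3.14, the 2 members past a fold of 2. RT1-CE11 had a quotient of 1.75, Ciita of 1.54 and RT1-DOa of 1.48, all in the direction of a higher level in lean than in WKY hearts. Quotients for RT1-DOb, RT1-M3-1, RT1-Db1 and Tap1 were 1.36, 1.26, 1.24 and 1.04, and that of RT1-Da lay between the last 2. Below 1 lay RT1-Ba at 0.908, RT1-Bb at 0.853, RT1-CE1 at 0.853, RT1-N3 at 0.768 and Cd1d1 at 0.641. The classical class II genes other than RT1-Db2 thus had lean and WKY levels within a factor of 1.24 of each other by this arithmetic, and RT1-Db2 had not.

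Other genes of antigen processing were read from lists of 58 genes in all. In obese over lean hearts 17 rose and 1 fell, where 12.0% of all protein-coding genes were listed with a rise and 10.7% with a fall. In obese over WKY hearts 20 rose and 0 fell, where the shares were 12.3% and 10.6%, and none was in the lean table. Several of the lists hold so few genes that 1 listed gene puts them near or above these shares. Of 5 genes of the immunoproteasome and its activator, which cut peptides to fit class I molecules, 1 rose over lean and 2 over WKY hearts. Psmb9 rose with folds of 2.85 over lean (adjusted p = 1.95e-17) and 3.03 over WKY hearts (adjusted p = 2.5e-15) per the authors' deposited tables. Psmb8 was listed over WKY alone, with a fold of 3.27 (adjusted p = 1.08e-22) per the authors' deposited table. The 3 constitutive subunits that these replace and the chaperones Calr, Canx and Pdia3 were in no table, nor were Marchf1 and Marchf8, whose products mark class II molecules for breakdown.

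On the class II side, Ifi30, a thiol reductase that unfolds antigens in endosomes, had folds of 2.64 over lean (adjusted p = 3.67e-12) and 2.62 over WKY hearts (adjusted p = 8.05e-12) per the authors' deposited tables. Ctss, the protease that trims the invariant chain, had folds of 2.23 (adjusted p = 0.00589) and 2.62 (adjusted p = 0.000112) there, per the authors' deposited tables. The lysosomal protease gene Ctsd fell to 0.493 of the lean level (adjusted p = 3.31e-30) per the authors' deposited table. Of 8 endosomal genes, 2 rose and 1 fell over lean and 2 rose over WKY hearts. Of all protein-coding genes, 12.0% were listed with a rise over lean and 12.3% over WKY hearts, and 10.7% and 10.6% with a fall. In a list this short, such counts stand near these shares.

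Of 16 regulators, 4 rose over lean and 3 over WKY hearts, beside 12.0% and 12.3% of all protein-coding genes. Irf1, which acts on class I, Tap1 and Ciita genes after interferon, had folds of 2.14 (adjusted p = 4.12e-10) over lean and 2.11 (adjusted p = 9.34e-10) over WKY hearts per the authors' deposited tables. Spi1, a transcription factor of myeloid and B cells, had folds of 5.54 and 5.43, and Irf8, of dendritic cells and macrophages, of 2.87 and 4.59 per the authors' deposited tables. Irf2 rose over lean hearts with a fold of 2.07 (adjusted p = 7.98e-41) per the authors' deposited table. Rfx5, Rfxap, Rfxank and the 3 NF-Y genes, whose products bind the X and Y boxes shown above, were in no table. Ifngr1, a chain of the interferon gamma receptor, had folds of 2.60 and 2.91 per the authors' deposited tables, and Ifng itself and Ifngr2 were not listed.

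Of 6 relatives of class I with other tasks, 3 rose over lean and 4 over WKY hearts. The shares of all protein-coding genes listed with a rise, for this list and those below, were 12.0% over lean and 12.3% over WKY hearts. Fcgrt, the neonatal receptor for antibodies and albumin, had folds of 3.53 over lean (adjusted p = 1.25e-110) and 5.03 over WKY hearts (adjusted p = 1.01e-111) per the authors' deposited tables. Procr, the endothelial protein C receptor, had folds of 5.70 and 6.45, and Hfe, a regulator of iron uptake, of 3.76 and 4.17 per the authors' deposited tables. Of 5 genes of surface molecules that tune T cell responses, 3 rose over lean and 4 over WKY hearts. This list holds Cd40, the activating ligand genes Cd80 and Cd86, and Cd274 and Pdcd1lg2, which encode the inhibitory ligands of the receptor PD-1. Pdcd1lg2 had the smallest adjusted p of the list, with folds of 2.69 over lean (adjusted p = 7.7e-16) and 4.63 over WKY hearts (adjusted p = 8.82e-32) per the authors' deposited tables, and Cd274 was in no table. The activating ligands rose as well, with Cd80 at folds of 7.01 and 6.41 and Cd86 at 3.32 and 3.92 per the authors' deposited tables. Of 7 genes of the T cell receptor and co-receptors, 3 rose over lean and 4 over WKY hearts. Among them Cd8a had folds of 4.86 (adjusted p = 7.47e-10) and 5.17 (adjusted p = 1.3e-13) per the authors' deposited tables, while Cd4 was in none.

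Markers of cells that carry class II molecules moved in the same comparisons. Of all protein-coding genes in the reference, 12.0% were listed with a rise over lean and 12.3% over WKY hearts, and 10.7% and 10.6% with a fall. B cell markers rose in 6 of 8 cases over lean hearts, with folds of 2.91 to 5.39 per the authors' deposited table, and in 3 of 8 over WKY hearts. Dendritic cell markers rose in 5 of 8 cases over lean and 4 of 8 over WKY hearts, among them Batf3 at folds of 6.92 and 8.06 and Clec9a at 5.28 and 7.01 per the authors' deposited tables. Macrophage markers rose in 9 of 10 and 10 of 10 cases, with median folds of 3.16 over lean and 4.26 over WKY hearts per the authors' deposited tables, and all 6 leukocyte markers rose in both. Markers of T and NK cells rose in 5 of 10 and 7 of 10 cases and endothelial markers in 7 of 8 in both, while cardiomyocyte markers fell in 5 of 10 in both and rose in 0. None of these markers was in the lean table.

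These lists share Cd3d, Cd3e, Cd3g, Cd4 and Cd8a with the T cell genes above. The part of the markers in the values of the class II and class I genes was not tested. Levels are not given in the tables, so the tissue label could be checked only as far as genes of cardiomyocytes, such as Myh6 and Ryr2, were listed as changed.

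**Figure D5:**
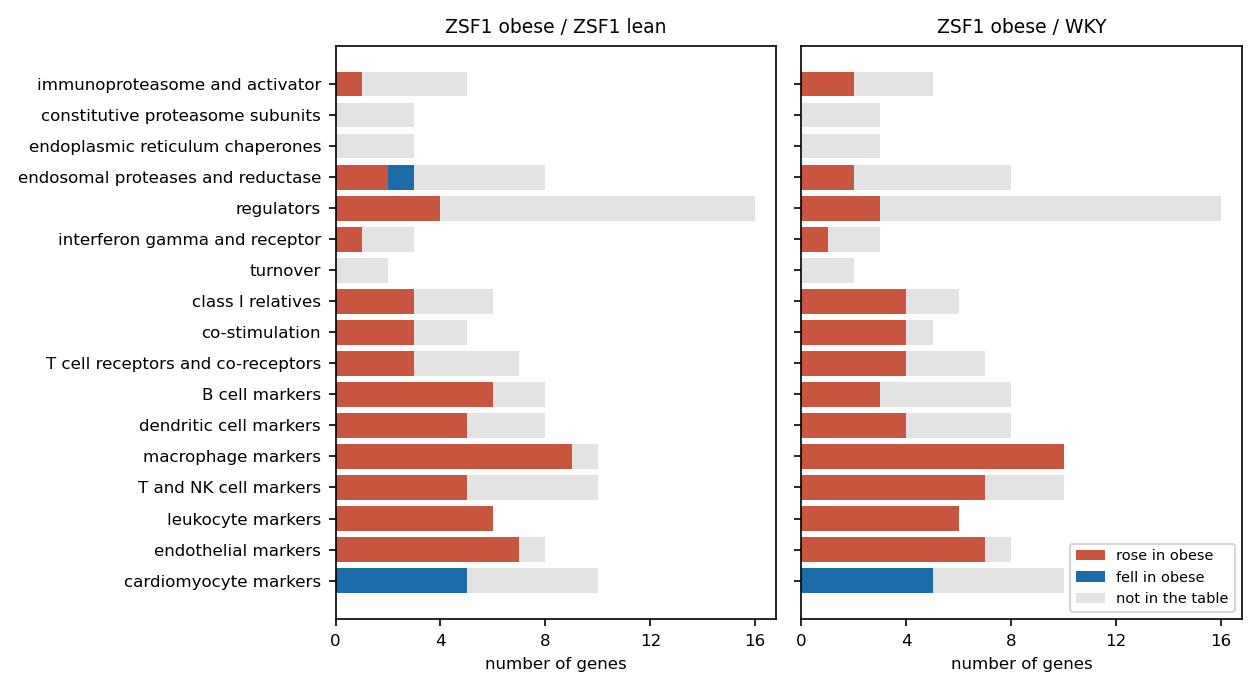
Number of genes (horizontal axis) of each antigen processing list and each cell type marker list that rose (red), fell (blue) or were not in the table (grey), for ZSF1 obese over ZSF1 lean (left) and ZSF1 obese over WKY (right). Red fills 6 of 6 leukocyte markers and 9 or 10 of 10 macrophage markers, blue 5 of 10 cardiomyocyte markers, and the constitutive proteasome and chaperone bars are grey throughout; the row named co-stimulation also counts the inhibitory ligand genes Cd274 and Pdcd1lg2.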

How the data were processed

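Left ventricle RNA of 18 male rats was used, 6 each of ZSF1 obese, ZSF1 lean and WKY. Polyadenylated RNA was made into stranded TruSeq libraries after extraction with RNeasy columns, per the labels' protocols. Alignment software HISAT2 2.1.0, the counter HTSeq 0.11.2, the test software DESeq2 1.22.2 and build Rnor_6.0 come from the submitters' processing notes. How they were set, and how reads matching several genes were counted, is not given in the sources used here. No batches are named there, so it is unknown whether batch went with group, and the part of batch in the folds could not be separated. Nothing says how the rats were reared, so p-values measure the spread between these animals.

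The authors' 3 deposited tables give, per the file headers, a linear fold (the ratio of the group named first over the other) and a false discovery rate, which is an adjusted p-value. As tested on the values, the tables hold genes with folds from 2 upward or 0.5 downward and adjusted p under 0.05. Both columns were used as they stand. No counts, levels, standard errors or values per rat were used here, so no test could be fitted again, no rat left out, and no batch searched for.

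Members, classes and lists were chosen with earlier results of these data known. Class was taken from the deposited description. All 20 listed members are named. Of the list genes, up to 4 per group by adjusted p are named, and Cd80, Cd86, Batf3, Clec9a, Myh6 and Ryr2 were named for their role. List genes found in neither the reference nor the tables were left out of the denominators. RefSeq's table of build GRCr8 gave gene names, gene order and promoters of 250 bases before to 50 after each start. Counting and motif searches were made with Python 3.11.15 and pandas 2.3.3 and checked on simulated tables. Figures used matplotlib 3.10.9.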

Additional observations from a re-analysis of the deposited data

How the results depend on the processing

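No paired analysis was possible because the tables hold no values per rat and the groups share no replicate numbers. Leaving out rats was not possible for the same reason, and the planned exclusion of RT1 members with near-identical proteins was not run, since no protein sequences were used here. Counts of listed members stayed within 1.5 times at an adjusted p under 0.01 or 0.001, once per symbol, and at the largest adjusted p of the lean table, the last chosen after seeing the data. Folds from 4 upward or 0.25 downward left 5 members in obese over lean hearts, all class II, with 0 of class Ia, 0 of class Ib and other class I and 0 of the machinery. In obese over WKY hearts this limit left 11 members, with 1 of class Ia and 1 of class Ib and other class I. It also left 2 of the machinery and regulators there, Ciita with a rise and Cd1d1 with a fall. In lean over WKY hearts it left 0 of class II. Without the 3 identifiers whose symbol and description differ, also chosen after seeing the data, 0 class Ia genes remained in either obese comparison. These settings admit fewer genes by construction. Quotients of the obese folds in place of the lean fold gave 2 members past a fold of 2, against 3 in the lean table, because RT1-N2 has no quotient. The median log2 fold of the members kept its sign and moved by less than the spread of their log2 folds under each setting that could be run. Depth is unknown, and without it low levels cannot be told from unchanged ones.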

Other observations

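Genes that are no members but lie between RT1-M2 and Tapbp in the reference order were looked at after the members' values had been seen. Of 149 such protein-coding genes, 25 rose and 7 fell in obese over lean hearts, or 16.8% and 4.7%, where 12.0% of all protein-coding genes were listed with a rise and 10.7% with a fall. In obese over WKY hearts 26 rose and 6 fell, or 17.4% and 4.03%, beside 12.3% and 10.6% of all protein-coding genes. These rises include Aif1 and Psmb9 in both comparisons and Psmb8 over WKY hearts, which the lists above also count. Ubd, which encodes the ubiquitin-like modifier FAT10, had folds of 4.99 over lean and 17.1 over WKY hearts in the authors' deposited tables, and was 2.13 times as high in lean as in WKY hearts. Zfp57, a zinc finger gene that guards imprinted methylation in mice, had folds of 6.5 over lean and 2.41 over WKY hearts and stood at 0.49 in lean over WKY hearts in the authors' deposited tables. Ubd and Zfp57 were the 2 genes of the 149 in the lean table.

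Lst1, a leukocyte gene, had folds of 12.8 over lean and 8.46 over WKY hearts in the authors' deposited tables, and Col11a2, a fibrillar collagen gene next to the class II block, had folds of 8.94 and 8.06. Falls in the region included Vwa7 at 0.117 of the lean and 0.096 of the WKY level and Atp6v1g2, a proton pump subunit gene, at 0.118 and 0.089 in the authors' deposited tables. No test was made on the region, and no explanation is offered.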
